A study of Homo sapiens with 10 samples.

Results

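The Arp2/3 complex subunits were followed as 9 genes, ARPC1A, ARPC1B, ARPC2, ARPC3, ARPC4, ARPC5, ARPC5L, ACTR2 and ACTR3, out of 26134 genes in the deposited table. The choice followed membership of the complex by symbol and no threshold on values, though earlier results of these data were known when it was made. Each symbol had 1 entry. Protrusions of MDA-MB-231, a mesenchymal triple-negative human breast cancer line, were set against the corresponding cell bodies of the same line, with 5 libraries of each. Single cells held by micro-hooks of a microfluidic array grew protrusions over 6 h and were fixed in 4% paraformaldehyde on ice for 15 min. Protrusions and bodies were cut apart by laser capture microdissection, and their polyadenylated RNA was amplified with an ultra-low-input kit. All libraries share this 1 line, the confinement and the fixation, no library of undivided cells was analysed here, and the number of cells per library is not given. Whether the cultures behind the libraries were separate is not labelled, so p-values speak for the spread among these libraries alone, and that spread may be technical.

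The Arp2/3 complex starts a new actin filament as a branch on the side of an existing one. It drives the branched network at the leading edge of migrating cells and in invasive protrusions, once activated by WAVE or WASP family proteins. ACTR2 and ACTR3 encode the actin-like subunits that template the new filament, ARPC2 and ARPC4 form the core that grips the mother filament, and ARPC1, ARPC3 and ARPC5 complete the assembly. ARPC1 and ARPC5 each exist as a pair of paralogues that are alternatives within a complex. Messages of Arp2/3 subunits have been reported in the protrusions of fibroblasts by in situ hybridization, which makes their level here a question the design can address.

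Values are called scaled TPM, a level per transcript length and per library. That unit was read from the values, as no label names it. Libraries are given with replicate numbers 1 to 5 in order. The sum of the deposited values ran from 737343 to 1103250 in protrusions and from 967421 to 1390250 in cell bodies, and read depth is unknown. In such bulk libraries fewer cells contributing and less RNA per cell cannot be told apart. The compartments separated as labelled. RAB13, a message of protrusions in other cells, stood at 197 to 297 in protrusions, against 29.7 to 52.5 in cell bodies. The nuclear RNA MALAT1 stood at 0.288 to 25.2 in protrusions and 47.5 to 143 in cell bodies. Protrusion library 2 held the MALAT1 value of 25.2, against at most 5.06 in the other protrusions, so results are also given without both libraries numbered 2. The 4 markers of mesenchymal breast cancer cells (VIM, CD44, CAV1 and AXL) summed to 928 to 1291 in protrusions and 942 to 1181 in cell bodies. The 3 measured of 4 epithelial and hormone receptor markers summed to 0.787 to 5.35 in protrusions and 2.92 to 5.17 in cell bodies, with PGR at 0 in every protrusion. Of these EPCAM stood at 0.787 to 5.25 in protrusions and 1.54 to 4.18 in cell bodies. CDH1 was lower in protrusions, at 0 to 0.107, against 0.745 to 1.38 in cell bodies, and did not reach the filter for testing. The 3 measured of 4 blood markers summed to at most 1.02 in protrusions and 0.098 in cell bodies. Of the 4 keratinocyte markers 2 were measured, with KRT10 alone above 1 (69.6 to 85.7 in protrusions and 94.2 to 112 in cell bodies) and KRT14 at 0 in every protrusion.

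All 9 subunit messages were detected in every protrusion library and in every cell body library, and all 9 passed the filter of 1 or more in at least 5 libraries. ARPC4 rose in protrusions, the other 8 did not pass the test across all genes, and none fell. Among all 10894 tested genes 4.28% were higher in protrusions and 21.5% lower, by limma with a Benjamini-Hochberg adjusted p under 0.05. Among protein-coding genes alone these shares were 4.74% and 16.9%. The 9 members had a median log2 change of 0.25 on the log2(value + 1) scale, where positive values mean higher in protrusions, and 7 were positive and 2 negative. The median over all tested genes was -0.03. Without cell body library 2 the members' median was 0.04, without protrusion library 4 it was 0.13, and without protrusion library 2 it was 0.40.

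The call of 1 rising member depended on how the spread was estimated. The numbers were taken to pair the libraries. The deviations of a protrusion and the cell body of the same number went together for each of the 5 numbers. Those of numbers 3 and 4 also went together across the numbers (correlations of 0.289 and 0.225). With the number as a block ARPC1A and ARPC1B passed beside ARPC4, which made 3 of 9, where 13.0% of all tested genes were higher and 25.4% lower. ARPC1A and ARPC1B also passed under each of the 3 other scalings of the libraries. Of all tested genes 14.1% were then higher with library sums made equal, 17.5% with quantile-normalized values and 10.4% with median-of-ratios scaling, against 17.2%, 17.3% and 19.7% lower. Of all calls 16.6% were higher in protrusions as deposited, and 44.9%, 50.3% and 34.6% under these scalings, which moved the median change of all genes to 0.24, 0.24 and 0.09. The median change of the members was 0.60, 0.24 and 0.39 under them.

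**Figure D1:**
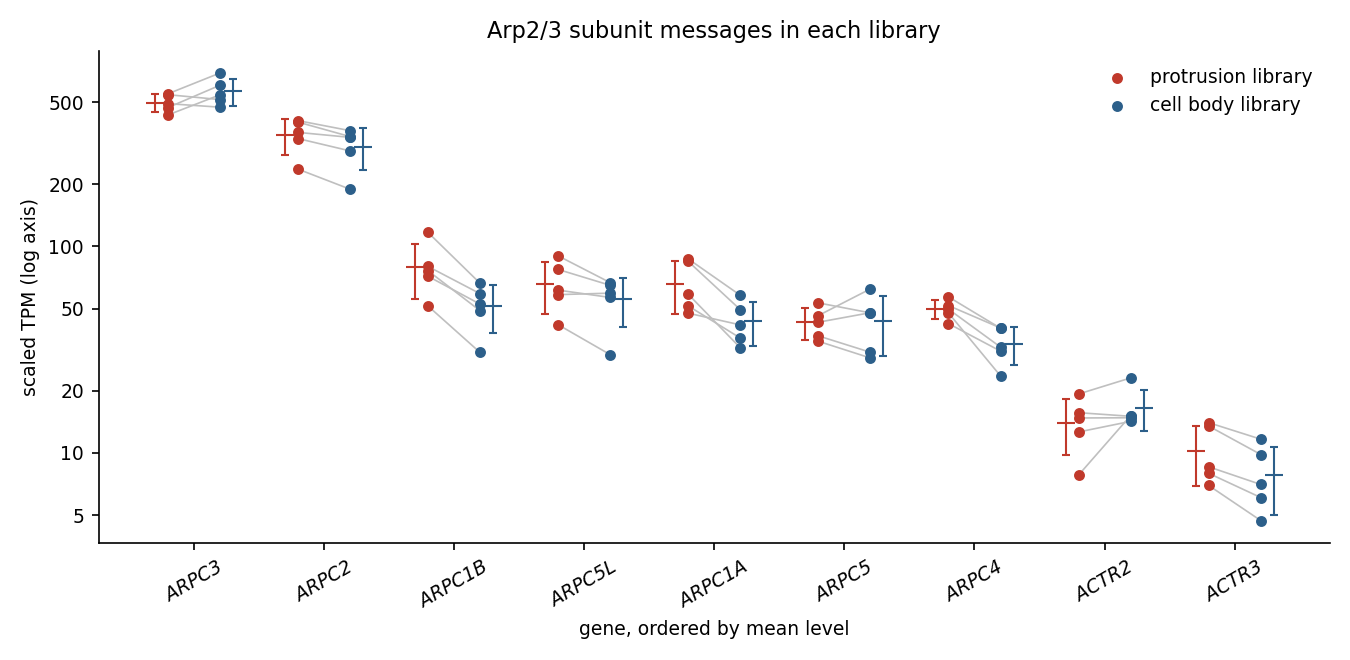
Scaled TPM (log axis) of the 9 subunit genes in 5 protrusion libraries (red) and 5 cell body libraries (blue), with lines joining libraries of the same number and bars at the mean with its SD. ARPC4 is the subunit whose groups stand apart, at 42.3 to 57.0 in protrusions and 23.6 to 40.3 in cell bodies.

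In scaled TPM the levels fell into tiers, with ARPC3 and ARPC2 far above the other subunits and ACTR2 and ACTR3 below them. Over the 10 libraries ARPC3 averaged 531, ARPC2 326, ARPC1B 65.4, ARPC5L 60.7, ARPC1A 54.7, ARPC5 43.1, ARPC4 41.6, ACTR2 15.2 and ACTR3 9.02 scaled TPM. ARPC3 stood above ARPC2, and ARPC2 above ARPC1B, in 10 of 10 libraries with ranges that did not overlap, and the same held for ARPC4 over ACTR2. Between ARPC1B and ARPC4 no neighbours differed beyond their spread. ARPC1B was above ARPC5L in 6 of 10 libraries, ARPC5L above ARPC1A in 6 of 10 and ARPC1A above ARPC5 in 7 of 10. The order of ARPC5 and ARPC4 turned with the compartment, with ARPC5 the higher in 1 of 5 protrusions and in 4 of 5 cell bodies. ACTR2 was above ACTR3 in 3 of 5 protrusions and in 5 of 5 cell bodies. The authors' deposited log2 mean abundances gave another order below the top, in a unit unlike scaled TPM. They are headed logCPM, a level per library that is not divided by transcript length. There ACTR2 was at 6.57, above ARPC1A at 6.54 and ARPC4 at 6.16. ARPC3 and ARPC2 remained highest at 9.35 and 9.24, and ACTR3 lowest at 5.80. The reason for the difference was not tested.

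Of the core pair that contacts the mother filament, ARPC4 rose and ARPC2 did not pass the test. ARPC4 (ENSG00000241553, chr3:9792495-9807726 on the plus strand in GENCODE release 29, GRCh38, which also gives the positions below) was at 42.3, 47.6, 57.0, 51.7 and 49.7 in protrusions, against 31.1, 23.6, 40.2, 40.3 and 32.5 in cell bodies. Every protrusion was above every cell body, a separation that 3.46% of tested genes showed in this direction and 18.4% in the other. The means were 49.7 ± 5.39 in protrusions and 33.5 ± 6.99 in cell bodies (SD, n = 5 each), and the log2 change was 0.57 ± 0.18 (SE, limma adjusted p = 0.0269, and 0.0034 with the replicate block). The call was lost without any 1 of protrusion libraries 3, 4 and 5 or cell body libraries 1, 2 and 5, with changes of 0.46 to 0.57 and adjusted p of 0.05 to 0.0643. Without both libraries numbered 2 it held at 0.47 (adjusted p = 0.0416). In this annotation 28.3% of its exon bases are shared with the readthrough gene ARPC4-TTLL3 and with TADA3 on the other strand. ARPC4-TTLL3 reached at most 1.67 in protrusions and 0.532 in cell bodies. TADA3 lay at 8.50 ± 1.89 in protrusions, against 11.0 ± 1.71 in cell bodies (SD, n = 5 each), with a change of -0.35 that did not pass the test (adjusted p = 0.252). The part of TADA3 reads in ARPC4 was not tested.

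ARPC2 (chr2:218217094-218254356, plus strand) was at 357, 237, 401, 407 and 333 in protrusions, against 338, 189.6, 341, 364 and 291 in cell bodies. Each protrusion was above its own cell body, but the groups overlapped widely, and the libraries numbered 2 were the lowest of both groups. Its log2 change was 0.20, with a 95% interval from -0.24 to 0.63 and an adjusted p of 0.535, or 0.0583 with the replicate block. Without cell body library 2 the change was 0.037.

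Both ARPC1 paralogues had a higher scaled TPM in each protrusion than in its own cell body, but neither passed the test without the block. ARPC1 is the beta-propeller subunit, and the genes of its paralogues lie next to each other, ARPC1A at chr7:99325910-99366262 and ARPC1B at chr7:99374249-99394816, both on the plus strand. ARPC1A was at 47.5, 51.5, 87.1, 84.7 and 58.7 in protrusions, against 41.7, 36.0, 58.0, 49.4 and 32.3 in cell bodies. ARPC1B was at 71.7, 51.5, 117, 80.0 and 76.4 in protrusions, against 52.6, 30.7, 66.4, 59.1 and 48.9 in cell bodies. For each gene all 5 protrusions were above the cell body of their number, as for 17.0% of all tested genes, while the groups as wholes overlapped. The log2 changes were 0.57 ± 0.22 for ARPC1A (SE, adjusted p = 0.0709) and 0.61 ± 0.24 for ARPC1B (SE, adjusted p = 0.0779). With the block the standard errors were 0.12 and 0.105 and the adjusted p 0.00283 and 7.59e-04. Without both libraries numbered 2 the changes were 0.59 (adjusted p = 0.0728) and 0.58 (adjusted p = 0.0259). Neither direction turned under the 3 other scalings, where the changes were 0.59 to 0.93 for ARPC1A and 0.59 to 0.96 for ARPC1B. The annotation places 58.4% of ARPC1A exon bases also in the readthrough gene AC004922.1, which was not analysed here. For ARPC1B 32.4% are shared, with that gene and with PDAP1 on the other strand. PDAP1 was at 16.5 ± 3.52 in protrusions, against 11.5 ± 2.34 in cell bodies (SD, n = 5 each). It was higher in the protrusion for 5 of 5 numbers, with a change of 0.49 (limma adjusted p = 0.0934, and 0.0152 with the block). The strand setting of the counting is not given, and the part of PDAP1 reads in ARPC1B was not tested.

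How alike the paralogues are bears on whether reads can be split between them, and the stretch around the longest run shared by each pair is shown for that reason. Each line gives 60 coding bases from GENCODE release 29 (GRCh38), 5′ to 3′, with the longest run identical in both genes in capitals.
ARPC1B: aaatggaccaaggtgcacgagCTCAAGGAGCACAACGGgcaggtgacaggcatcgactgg
ARPC1A: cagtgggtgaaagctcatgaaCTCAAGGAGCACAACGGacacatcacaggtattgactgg
ARPC5L: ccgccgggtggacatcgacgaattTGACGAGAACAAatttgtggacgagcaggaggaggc
ARPC5: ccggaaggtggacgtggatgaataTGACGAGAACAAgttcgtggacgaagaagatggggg
ACTR3B: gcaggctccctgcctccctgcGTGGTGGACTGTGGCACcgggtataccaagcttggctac
ACTR3: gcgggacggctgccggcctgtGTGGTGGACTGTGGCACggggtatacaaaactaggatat
ARPC1B and ARPC1A were identical at 73.9% of aligned coding positions, gaps aside, with a longest shared run of 17 bases. ARPC5L and ARPC5 were identical at 77.3%, with a longest run of 12 bases. ACTR3B, a paralogue of ACTR3 outside the 9 members, matched ACTR3 at 77.8%, with a longest run of 17 bases. No window of 31 coding bases was shared within any of these pairs.

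ARPC5 and ARPC5L, the alternative smallest subunits, showed no change that passed the test. ARPC5 (chr1:183620846-183635757, minus strand) was at 53.3, 34.7, 46.3, 42.9 and 36.9 in protrusions, against 47.7, 28.8, 62.3, 47.8 and 30.7 in cell bodies. Numbers 1, 2 and 5 were higher in the protrusion and numbers 3 and 4 in the cell body. Its change of 0.02 had a 95% interval from -0.45 to 0.49 (adjusted p = 0.958). ARPC5L (chr9:124862130-124877733, plus strand) was at 61.4, 41.8, 77.4, 90.1 and 58.4 in protrusions, against 56.6, 29.9, 64.9, 66.8 and 59.4 in cell bodies. It was higher in the protrusion for 4 of 5 numbers, and its change of 0.25 had an interval from -0.28 to 0.78 (adjusted p = 0.523). Without cell body library 2, where ARPC5L lay far below the other cell bodies, the change was 0.043.

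ARPC3, which joins ACTR3 to the rest of the complex, was the most abundant subunit message, and its change did not pass the test. ARPC3 (chr12:110434825-110450422, minus strand) was at 548, 544, 433, 470.2 and 492 in protrusions, against 691, 515, 542, 603 and 473 in cell bodies. Numbers 1, 3 and 4 were lower in the protrusion, numbers 2 and 5 slightly higher, and the groups overlapped. The change was -0.18, with an interval from -0.48 to 0.13 (adjusted p = 0.417), and turned to 0.18 once library sums were made equal. In the annotation 3.21% of its exon bases are shared with another gene, and its 3 pseudogenes in the table reached at most 0.87 in protrusions and 0.502 in cell bodies.

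The actin-like subunits had the lowest scaled TPM of the complex, and neither change passed the test. ACTR3 (chr2:113889960-113962596, plus strand) was at 7.96, 6.95, 14.0, 13.5 and 8.56 in protrusions, against 6.08, 4.70, 11.6, 9.82 and 7.03 in cell bodies. ACTR2 (chr2:65227753-65271253, plus strand) was at 15.7, 19.3, 7.81, 12.6 and 14.8 in protrusions, against 15.0, 23.1, 15.2, 14.2 and 14.8 in cell bodies. ACTR3 was above its own cell body in 5 of 5 numbers, and ACTR2 below it in 4 of 5. In both compartments the libraries numbered 2 held the highest ACTR2 and the lowest ACTR3, and number 3 the highest ACTR3. The changes were 0.35 for ACTR3 (95% interval -0.22 to 0.92, adjusted p = 0.391) and -0.25 for ACTR2 (-0.75 to 0.25, adjusted p = 0.498). The change of ACTR2 turned to 0.09 once library sums were made equal.

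In all, 5 of the 9 members (ARPC2, ARPC1B, ARPC1A, ARPC4 and ACTR3) were higher in the protrusion for every number and 0 were lower for every number. Of all tested genes 17.0% were higher and 26.4% lower for every number.

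**Figure D2:**
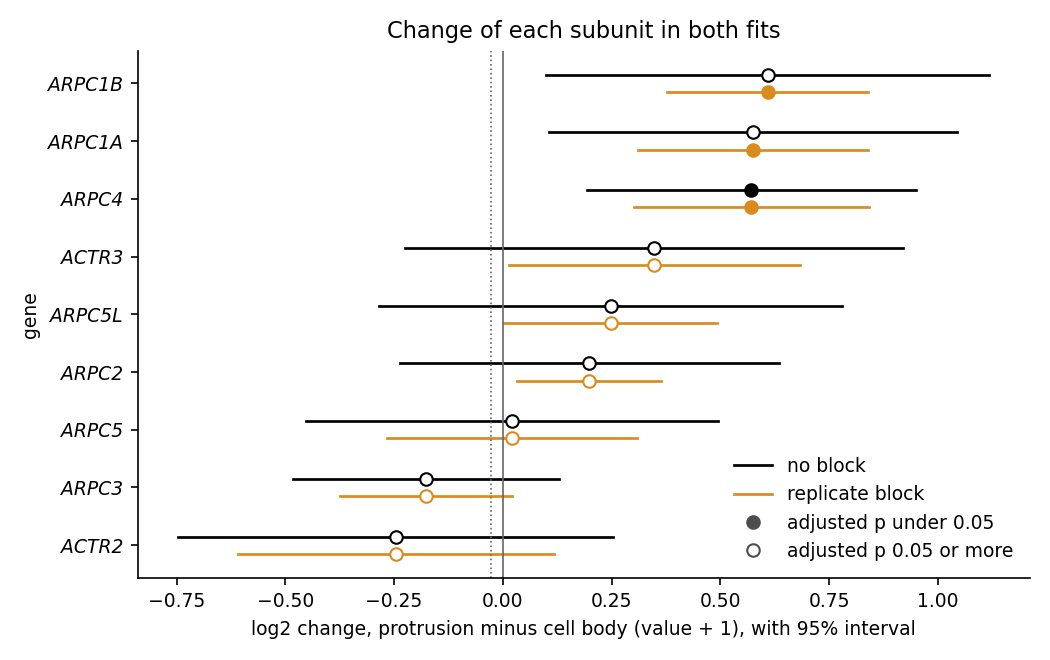
Log2 change of each subunit between protrusions and cell bodies, as the difference of log2(value + 1), with its 95% interval in the fit without a block (black) and with the replicate number as a block (orange), where filled points have an adjusted p under 0.05. ARPC4 is filled in both fits, ARPC1A and ARPC1B with the block, and the dotted line marks the median of all tested genes at -0.03.

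Ratios within a library are not moved by a single factor per library, apart from the added 1, whereas quantile normalization can move them. Of such ratios 4 were compared on the deposited values by exact two-sided permutation tests with Benjamini-Hochberg adjustment over the 4. The smallest p that 5 against 5 libraries allow is 0.00794. The log2 ratio of ARPC1B to ARPC1A was 0.26 ± 0.29 in protrusions and 0.23 ± 0.29 in cell bodies (SD, n = 5 each), a difference of 0.03 (exact p = 0.865, adjusted 0.865). That of ARPC5L to ARPC5 was 0.58 ± 0.35 in protrusions and 0.35 ± 0.37 in cell bodies (SD, n = 5 each), a difference of 0.23 (exact p = 0.357, adjusted 0.476). In scaled TPM ARPC5L was the higher paralogue in 10 of 10 libraries. In the authors' deposited log2 mean abundances, which are not divided by transcript length, ARPC5 was the higher, at 6.71 against 6.65 for ARPC5L. The annotation gives ARPC5 10624 exon bases and ARPC5L 3610, and the part of length in this order was not tested. Neither paralogue balance differed between compartments beyond its spread.

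The ratios among the actin-like genes differed more between compartments, but none passed the adjusted threshold. The log2 ratio of ACTR3 to ACTR2 was -0.89, -1.35, 0.77, 0.09 and -0.72 in protrusions, against -1.18, -2.08, -0.35, -0.49 and -0.98 in cell bodies. It was higher in the protrusion for 5 of 5 numbers, by 0.59 on average, while the groups overlapped (exact permutation p = 0.262, adjusted 0.476). The sign-flip test on the pairs gave 0.0625, the smallest p that 5 pairs allow. The log2 ratio of ACTR3B to ACTR3 was -2.04, -2.36, -1.49, -1.92 and -2.12 in protrusions, against -0.85, 0.07, -1.49, -1.20 and -0.36 in cell bodies. Its difference of -1.22 had an exact permutation p of 0.0159 and 0.0635 after adjustment, with number 3 alone showing no lower ratio in the protrusion. Without cell body library 3 the difference was -1.40 and the adjusted exact p 0.0317. The other 9 fits that left out 1 library did not pass (adjusted exact p up to 0.0952). For this ratio the sign-flip test on the pairs gave 0.125. Protrusion library 2, with the lowest ratio, had ACTR3B at 0.552, below the filter value of 1. The pseudogenes ACTR3BP4, ACTR3BP2 and ACTR3BP5 stood at 2.01, 0.221 and 0.099 there and at 0 in the other protrusions. They reached at most 0.071 in cell bodies, and their part in the ratio was not tested.

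**Figure D3:**
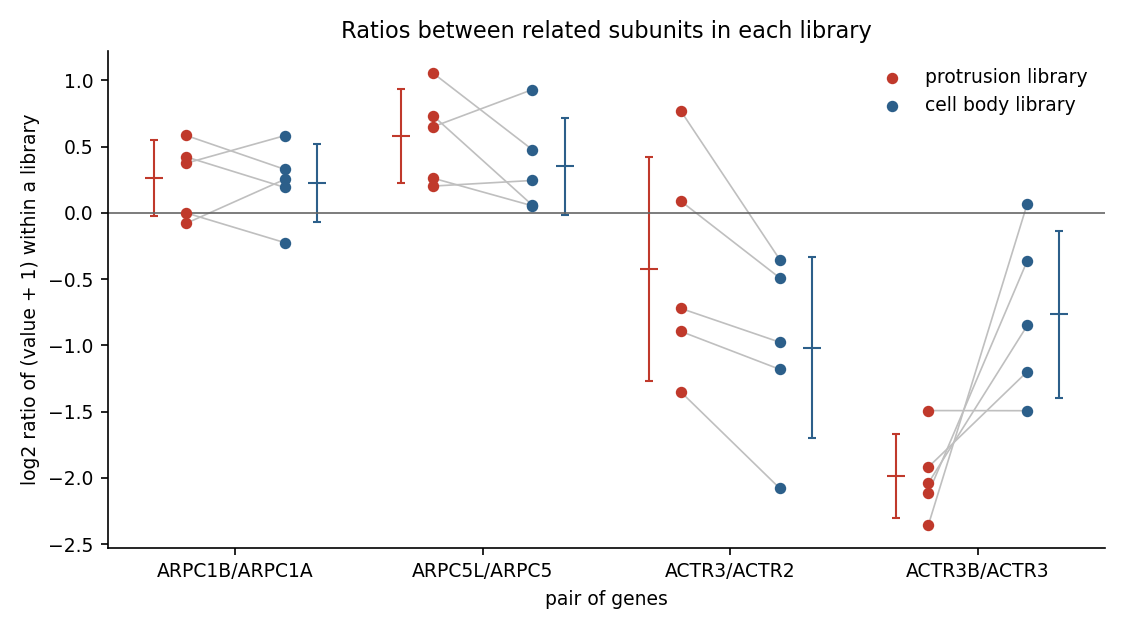
Log2 ratio of (value + 1) between 2 genes of the same library, for 5 protrusion libraries (red) and 5 cell body libraries (blue), with lines joining libraries of the same number and bars at the mean with its SD. ARPC1B/ARPC1A and ARPC5L/ARPC5 overlap between compartments, and ACTR3B/ACTR3 averages -1.99 in protrusions and -0.77 in cell bodies.

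ARPC3 took a smaller share, and ARPC4, ARPC1A, ARPC1B, ARPC2 and ACTR3 a larger share, of the summed level of the 9 genes in the protrusion of every number. These shares are a description, without a test. Their total is fixed in each library, so a smaller share of ARPC3 by itself makes the other shares larger together. ARPC3 made up 45.5%, 52.6%, 34.9%, 37.5% and 43.6% of this sum in protrusions, against 54.0%, 58.4%, 45.1%, 48.1% and 47.8% in cell bodies, lower for every number. ARPC4 made up 3.51% to 4.60% in protrusions and 2.43% to 3.34% in cell bodies, so that the groups did not overlap. ARPC1B averaged 6.71% in protrusions and 4.55% in cell bodies, ARPC1A 5.58% in protrusions and 3.88% in cell bodies, and ARPC2 29.4% in protrusions and 26.9% in cell bodies, each higher for every number. The shares of ARPC5 averaged 3.64% in protrusions and 3.82% in cell bodies. The summed level itself was 1172 ± 91.0 in protrusions and 1121 ± 176 in cell bodies (SD, n = 5 each), higher in the protrusion for 3 of 5 numbers.

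**Figure D4:**
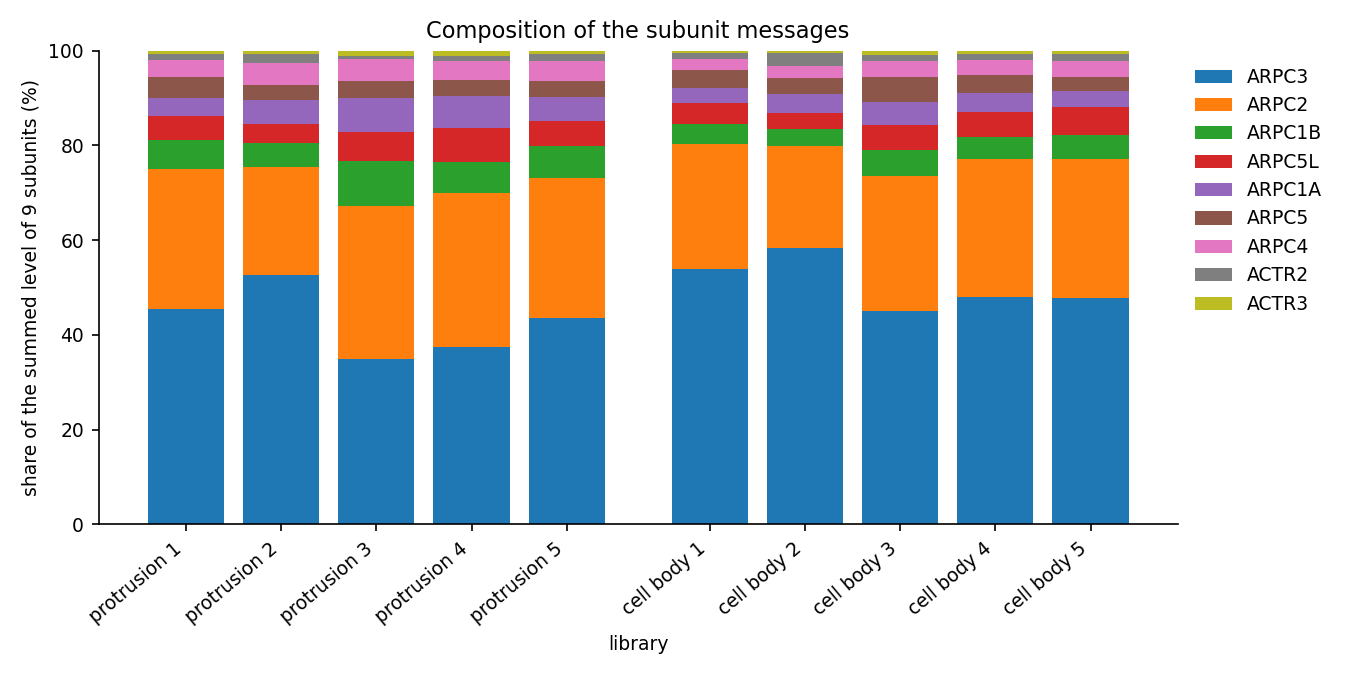
Share of each subunit in the summed scaled TPM of the 9 subunit genes, as stacked bars for the 5 protrusion libraries on the left and the 5 cell body libraries on the right. ARPC3 and ARPC2 fill most of every bar, and the ARPC3 share averages 42.8% in protrusions and 50.7% in cell bodies.

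The profiles of the members lay at different distances from each other, measured as the root-mean-square difference of log2 levels over the 10 libraries after centring each gene. This distance also depends on how far each gene varied, and pairs of genes outside the complex were not measured. Of the 36 pairs of members ARPC2 and ARPC5L were closest at 0.131, against a median of 0.344 and a largest value of 0.814 for ARPC1B and ACTR2. ACTR2 was the member farthest from the mean profile of the 9 at 0.559, and ARPC2 the nearest at 0.147. Outside the complex, among 3534 protein-coding genes with a mean of at least 10, the profiles nearest to that mean were those of the casein kinase gene CSNK1A1 (0.0633), the ESCRT-III gene CHMP5 (0.0719), the prohibitin gene PHB2 (0.0801), the ER export gene TFG (0.0818) and XRCC6BP1 (0.0849). The median of these candidates was 0.336.

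The partners of the complex, in 7 lists of 80 genes in the table, gave 59 tested genes, of which 2 rose, 5 fell and the other 52 missed the threshold, where 4.28% of all tested genes were higher and 21.5% lower. In the block fit 10 rose and 6 fell, where 13.0% of all were higher and 25.4% lower, while under those 3 scalings, in the order given above, the counts were 11, 12 and 8 higher and 3, 4 and 4 lower. The lists and the rule for naming their genes were chosen with earlier results known.

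Upstream of the complex, the WAVE subunit gene BRK1 rose and the other 8 tested genes of the WAVE list did not pass (median change 0.20). In the block fit 2 of the 9 were higher, where 13.0% of all tested genes were, and 4.28% without the block. They were BRK1 and the Abl interactor gene ABI3, which is named for this after its values were seen. ABI3 was at 4.09 ± 1.96 in protrusions, against 2.07 ± 0.742 in cell bodies (SD, n = 5 each), with a change of 0.67 (adjusted p = 0.111, and 0.0329 with the block). BRK1 was at 341, 332, 346, 302 and 307 in protrusions, against 289, 227, 242, 268 and 228 in cell bodies. Its groups did not overlap, which 3.46% of tested genes showed in this direction. Its change was 0.38 ± 0.13 (SE, adjusted p = 0.0444, and 0.00452 with the block), and the call was lost without both libraries numbered 2 (adjusted p = 0.0642) and in 9 of the 10 fits that left out 1 library. WASF2, the gene of WAVE2, stood at 6.67 ± 1.94 in protrusions, against 5.60 ± 1.23 in cell bodies (adjusted p = 0.561), the WAVE core gene NCKAP1 at 7.72 ± 3.08 in protrusions, against 7.89 ± 1.32 in cell bodies (0.814), and the Abl interactor gene ABI2 at 7.96 ± 2.87 in protrusions, against 5.79 ± 1.44 in cell bodies (0.365), with SD over n = 5 each and limma adjusted p in brackets.

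In the list of N-WASP and its partners 1 of 6 tested genes fell, against 21.5% of all tested genes, and the median change was -0.23. This was WHAMM, an Arp2/3 activator of internal membranes, at 0.721, 3.11, 0.509, 0.585 and 0.795 in protrusions, against 1.91, 2.42, 2.05, 2.34 and 3.24 in cell bodies. Protrusion library 2 alone lay among the cell bodies. The change of -0.76 (adjusted p = 0.047) did not pass without a filter (0.0971) or under the 3 scalings (0.0612 to 0.229), nor in 9 of 10 fits that left out 1 library. Without protrusion library 2 it was -1.03 (adjusted p = 4.37e-04). The partner genes WIPF1, NCK1 and NCK2 had changes of 0.11, -0.24 and 0.22 (adjusted p = 0.702, 0.459 and 0.462). In the WASH complex, which activates Arp2/3 on endosomes, 1 of 4 tested genes fell, against 21.5% of all tested genes (median change 0.04). KIAA1033, the gene of the WASH subunit SWIP, was at 3.63, 7.96, 0.671, 1.79 and 1.83 in protrusions, against 12.3, 20.9, 10.7, 10.2 and 21.4 in cell bodies (change -2.12 ± 0.39 SE, adjusted p = 6.64e-04). The groups did not overlap, a separation that 18.4% of tested genes showed in this direction and 3.46% in the other. The call held in every alternative. The small subunit gene CCDC53 was at 91.3 ± 7.04 in protrusions, against 70.5 ± 13.1 in cell bodies (SD, n = 5 each), without overlap, with a change of 0.39 (adjusted p = 0.0989, and 0.037 with the block). KIAA0196, the gene of strumpellin, and FAM21A, of a WASH tail subunit, had changes of 0.09 and -0.01 (adjusted p = 0.875 and 0.959).

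Among cofactors and inhibitors of branches 1 of 10 tested genes fell, against 21.5% of all tested genes, with a median change of 0.18. CORO1C, a coronin gene whose family promotes debranching, was at 24.8, 20.1, 34.5, 49.6 and 16.5 in protrusions, against 66.0, 34.7, 86.3, 60.2 and 47.5 in cell bodies. It was lower in the protrusion for every number, by 1.04 ± 0.30 on the log2 scale (SE, adjusted p = 0.0179), and missed the threshold once library sums were made equal (-0.69, adjusted p = 0.166). GMFG, which dissolves branches, was at 75.1 ± 15.1 in protrusions, against 52.8 ± 8.31 in cell bodies (SD, n = 5 each), with an adjusted p of 0.0627, or 0.0126 with the block. The tropomyosin genes TPM3 and TPM4 had changes of 0.30 and -0.20 (adjusted p = 0.193 and 0.501).

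Of 12 tested genes for capping and turnover of filaments 1 rose, against 4.28% of all tested genes, with a median change of -0.01. CAPZB, the beta subunit gene of capping protein, was at 76.4, 46.9, 76.1, 94.7 and 85.3 in protrusions, against 48.2, 30.3, 60.5, 55.4 and 47.7 in cell bodies (change 0.64 ± 0.22 SE, adjusted p = 0.0491, and 7.04e-04 with the block). The call was lost with a pseudocount of 0.1 (0.0549), without a filter (0.0847) and in 8 of 10 fits that left out 1 library. The cofilin gene CFL1 was at 1280.2 ± 274 in protrusions, against 1527 ± 444 in cell bodies (SD, n = 5 each, adjusted p = 0.566), and CAPG and DSTN had changes of 0.26 and 0.05 (adjusted p = 0.575 and 0.861). In the block fit 3 of the 12 were higher, where 13.0% of all tested genes were. They were CAPZB, CAPG (0.0428) and the twinfilin gene TWF2, which is named for this after its values were seen. TWF2 was at 21.6 ± 8.26 in protrusions, against 13.6 ± 5.34 in cell bodies (SD, n = 5 each), higher in the protrusion for 5 of 5 numbers, with a change of 0.64 (adjusted p = 0.16, and 0.00361 with the block).

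Of 11 tested nucleators that work without Arp2/3, 2 fell, where 21.5% of all tested genes were lower, and the median change was -0.21. The formin gene FMNL1 was at 2.48, 1.99, 1.73, 1.88 and 3.47 in protrusions, against 10.7, 17.9, 9.99, 8.17 and 15.9 in cell bodies (change -2.0 ± 0.25 SE, adjusted p = 1.53e-05). SPIRE2 was at 1.56, 1.52, 0.678, 0.717 and 0.992 in protrusions, against 4.54, 6.74, 4.95, 5.66 and 10.7 in cell bodies (-1.81 ± 0.24 SE, adjusted p = 3.65e-05). Neither gene's groups overlapped, a separation that 18.4% of tested genes showed in this direction. Both calls held in every alternative. The formin genes INF2 and DIAPH1 were higher in the protrusion for every number, with changes of 0.51 and 0.49 (adjusted p = 0.0752 and 0.0669, and 0.0121 and 0.0176 with the block), while FHOD1 had a change of -0.07 (adjusted p = 0.89).

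Among 7 tested actin-related proteins outside the complex 0 passed by limma, and 2 of them had an unadjusted p under 0.05 (median change 0.23). With the block 1 was higher and 1 lower, where 13.0% of all tested genes were higher and 25.4% lower. ACTR3B was at 1.18, 0.552, 4.34, 2.83 and 1.21 in protrusions, against 2.93, 4.98, 3.49, 3.72 and 5.25 in cell bodies, lower in the protrusion for 4 of 5 numbers (change -0.87, adjusted p = 0.0547, and 0.0387 with the block). The dynactin genes ACTR1A and ACTR10 had changes of 0.63 and 0.21 (adjusted p = 0.107 and 0.435, and 0.00594 for ACTR1A with the block). ACTR6, of chromatin remodelling, had a change of -0.02 (adjusted p = 0.951).

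**Figure D5:**
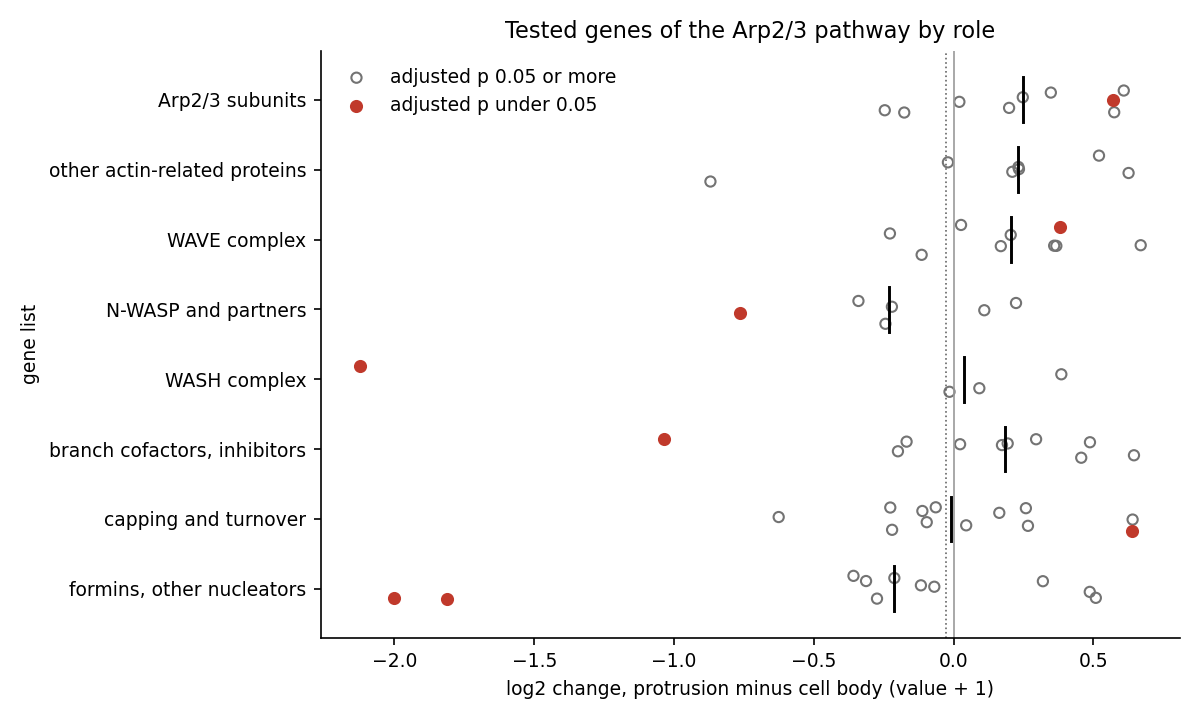
Log2 change between protrusions and cell bodies, as the difference of log2(value + 1), of the tested genes in the list of subunits and in 7 lists of partners, with filled points for an adjusted p under 0.05, a bar at each list's median and a dotted line at the median of all tested genes. ARPC4, BRK1 and CAPZB are filled to the right of 0, and WHAMM, KIAA1033, CORO1C, FMNL1 and SPIRE2 to the left.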

How the data were processed

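The authors deposited 1 table of 10 libraries with a value per gene, recorded here as a score. Per the submitters' processing notes, cutadapt 1.10, FastQC 0.10.1, HISAT2 and StringTie 1.3 were used. Neither the build nor the gene annotation nor the strand setting is stated in those notes or labels. No label names the unit. The values looked like TPM multiplied by 1 factor per library (0.7375 to 1.103 in protrusions and 0.9675 to 1.39 in cell bodies, product 0.999). In each library 100% of values below 2 were multiples of 1 step within 0.00051. Read depth is therefore unknown, and no counting interval is given. The table also holds the authors' log2 fold changes, log2 mean abundances and p-values (raw and as FDR), as deposited.

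Levels were compared as log2(value + 1) with limma 3.58.1 in R 4.3.3 (trended variance, two-sided), on 10894 genes at 1 or more in at least 5 of 10 libraries, with Benjamini-Hochberg adjustment over all of them. The script was tested on simulated data. Deviations from the group means of same-numbered libraries correlated at 0.236 to 0.577, and those of other numbers at -0.433 to 0.289. Every same-number value was over 0.1, though so were some of other numbers, such as 0.289 for protrusion 3 with cell body 4. The numbers were taken to pair the libraries, and the fit with the number as a block is given where it changes a call. The pairing rests on these values and on labels that call the cell bodies corresponding. Ratios were tested by exact permutation of 252 divisions and by 32 sign patterns with scipy 1.17.1 (Python 3.11.15, numpy 2.4.6, pandas 2.3.3, matplotlib 3.10.9). Alternatives were the block, a pseudocount of 0.1, no filter, 3 scalings, each library left out, and both libraries numbered 2 left out.

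The members and the lists were chosen with earlier results of these data known. The rule named all 9 members, each list gene past the threshold, up to 3 more per list with the highest mean, and the 5 genes nearest in profile. ACTR3B is named also for its ratio to ACTR3, and ABI3 and TWF2 for calls that the block changed. A further list of partner genes is not reported here.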

Additional observations from a re-analysis of the deposited data

Results flagged for a closer look

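In 26 groups of 5 libraries, each group being 1 gene or ratio in 1 compartment, 2 held a library farther from the others than Dixon's critical gap share of 0.71, and chance flags about 1 in 20. Both were cell body library 2. ARPC5L was at 29.932 there, against 56.6 to 66.8 in the other cell bodies (gap share 0.723). ACTR2 was at 23.078 there, against 14.2 to 15.2 in the other cell bodies (gap share 0.893). The protrusion of the same number also held the lowest ARPC5L (41.8) and the highest ACTR2 (19.3) of its group.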

How the results depend on the processing

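Of all tested genes 466 were higher in protrusions, and 1412 in the fit with the replicate block, 1533 once library sums were made equal, 1905 with quantile-normalized values, 1132 with median-of-ratios scaling and 257 to 649 when 1 library was left out. The 2340 lower genes of 10894 tested became 3975 of 26096 tested without a filter. They became 2136 to 2576 of 10894 when 1 library was left out. Of the subunits 1 was higher, and 3 with the block and under each of the 3 scalings, 2 without both libraries numbered 2 and 0 to 3 when 1 library was left out. None was lower by limma in any alternative, and 0 were lower at an unadjusted p under 0.05. The block added ARPC1A and ARPC1B and changed no other subunit's call.

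The compartment difference of the paralogue ratio ARPC1B to ARPC1A turned to -0.013 without both libraries numbered 2 and ran from -0.079 to 0.12 when 1 library was left out. That of ACTR3B to ACTR3 ran from -1.40 to -1.01, ACTR3 to ACTR2 from 0.30 to 0.83 and ARPC5L to ARPC5 from 0.11 to 0.37. Directions also turned for changes near 0. Once library sums were made equal they were 0.18 for ARPC3, 0.087 for ACTR2, 0.31 for ACTR6, 0.19 for NCKAP1, 0.058 for NCK1, 0.18 for FAM21A, 0.15 for TPM4, 0.14 for CFL1 and 0.26 for FHOD1. With quantile-normalized values they were 0.21 for ACTR6, 0.21 for NCKAP1, 0.082 for NCK1, 0.41 for FAM21A, 0.047 for CFL1, -0.031 for DSTN and 0.15 for FHOD1. With median-of-ratios scaling they were 0.12 for ACTR6, 0.014 for NCKAP1, 0.062 for FAM21A and 0.069 for FHOD1. Without both libraries numbered 2 they were -0.039 for ARPC5, 0.027 for ACTR6, -0.20 for KIAA0196 and 0.035 for FAM21A. With 1 library left out the ranges were -0.11 to 0.16 for ARPC5, -0.075 to 0.063 for ACTR6, -0.26 to 0.16 for NCKAP1, -0.24 to 0.27 for KIAA0196, -0.065 to 0.024 for FAM21A, -0.010 to 0.45 for CAPG, -0.034 to 0.096 for DSTN and -0.32 to 0.14 for FHOD1. The cause was not tested. Depth is unknown, so what it limits cannot be stated.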

Other observations

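The 9 subunits together made up 0.129%, 0.0938%, 0.168%, 0.152% and 0.132% of the summed values in protrusions, against 0.102%, 0.0634%, 0.124%, 0.115% and 0.0978% in cell bodies. This share was higher in the protrusion for 5 of 5 numbers, while the groups overlapped. The summed level of the 9, before division by the library sum, averaged 1172 in protrusions and 1121 in cell bodies, higher for 3 of 5 numbers. Library sums were lower in the protrusion for every number, and their part in this share was not tested.

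In the authors' deposited table, where a negative log2 value means higher in protrusions by the sign of RAB13 (-2.37), the subunits ran from -0.47 for ARPC4 to 0.06 for ARPC3. The adjusted p of the subunits in the authors' deposited table ran from 0.773 for ARPC4 to 1.00. MALAT1 stood at 1.49 in the authors' deposited table, while its change in the fit to the deposited values was -4.09, protrusion minus cell body.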
